A study of Mus musculus with 6 samples.

Results

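Kupffer cells, the macrophages that live in the sinusoids of the liver, were followed through 10 transcripts in the livers of insulin-resistant (IR) mice that had received insulin or its vehicle. The transcripts were Clec4f, Vsig4, Timd4, Adgre1, Cd68, Marco, Cd5l, C1qa, C1qb and C1qc, matched by gene name among the 54532 genes of the count table. All 10 passed the filter on low counts that left 13377 genes to be tested, with 96 to 3974 counts per library. RNA was taken from whole liver of 6 male C57BL/6J mice. At 8 weeks of age they had been placed on a high-fat diet (HFD) for 6 weeks to bring about insulin resistance, and they were fasted for 16 h before treatment. The 3 mice of the IR insulin group received insulin intraperitoneally at 0.75 units per kg body weight, the 3 mice of the IR vehicle group received bovine serum albumin (BSA), and livers were taken 6 h later. Both groups were therefore fasted and insulin resistant, and no chow-fed liver entered the comparison. The comparison asks which hepatic transcripts respond to insulin within 6 h once resistance has set in.

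Kupffer cells clear bacteria, aged blood cells and debris from portal blood with scavenger and complement receptors. They also release complement components and cytokines that act on the hepatocytes around them. Transcripts such as Clec4f and Timd4 mark the resident population of mouse liver, whereas Adgre1, Cd68 and the C1q genes are shared with other tissue macrophages. In whole liver, fewer macrophages and less RNA per macrophage cannot be told apart.

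None of the 10 Kupffer cell transcripts differed between IR insulin and IR vehicle livers beyond the spread between mice. Levels are given as CPM, read counts as a share of the library after scaling by TMM (trimmed mean of M values), and a log2 fold change above 0 means a higher level with insulin. In edgeR's quasi-likelihood F test 0 of 10 passed an adjusted p of 0.05, with 0.852 as their smallest value. The count was also 0 of 10 at an unadjusted p under 0.05, which 2.86% of all genes tested reached. DESeq2 gave 0 of the 9 transcripts for which it returned a p (it gave none for Marco), and limma with sample quality weights gave 0 of 10. The values of the 3 insulin and the 3 vehicle livers overlapped for every one of the 10, while they did not overlap for 12.3% of all genes tested (6.25% with the insulin livers higher). The log2 fold changes had a median of 0.29 and lay above 0 for 7 of the 10, beside a median of −0.02 and 48.6% above 0 over all genes tested. Their median was −0.085 without insulin replicate 1, 0.0031 without vehicle replicate 2 and 0.12 with the GC offset. Standard errors ran from 0.28 to 0.86 on the log2 scale, so that only large differences could have been seen with 3 mice per group.

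**Figure D1:**
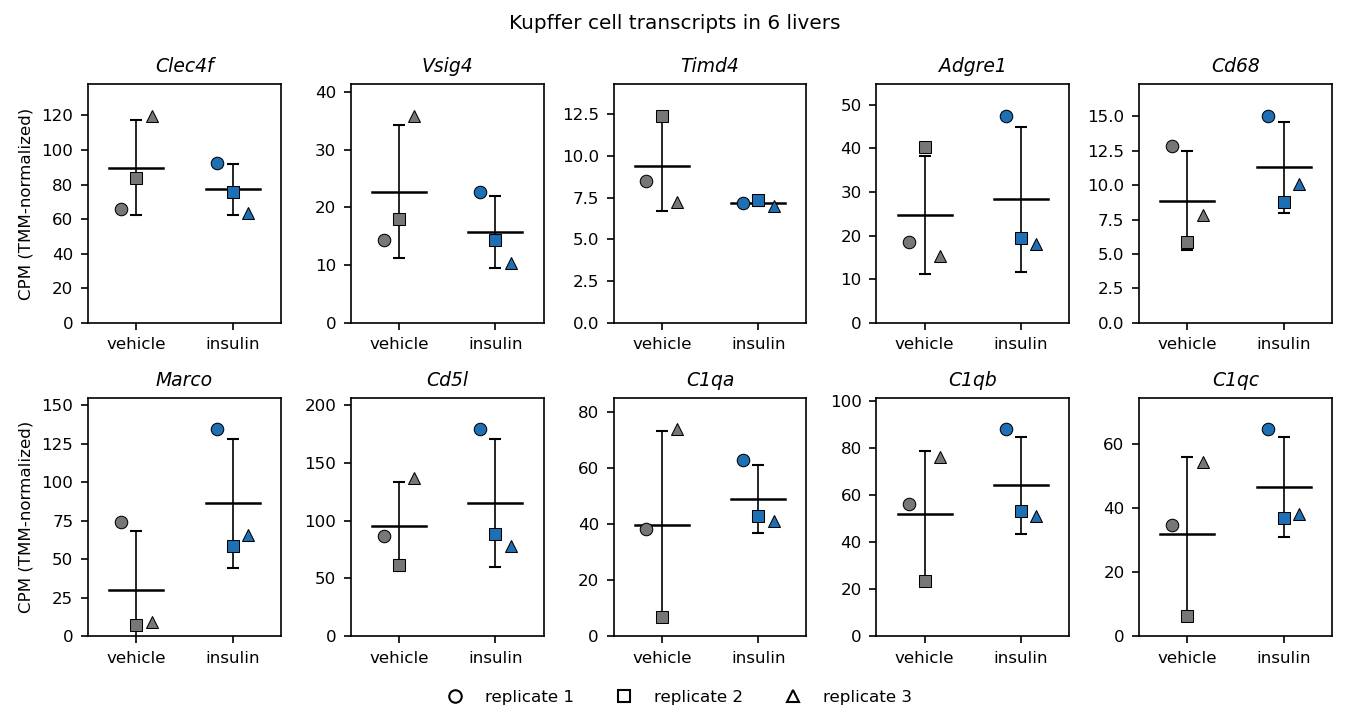
CPM of each Kupffer cell transcript in every liver, with 1 point per mouse (grey, IR vehicle, and blue, IR insulin; the shape gives the replicate number), a line at the mean and bars of 1 SD (n = 3). The groups overlap in all 10 panels, and vehicle replicate 2 is the lowest liver in 6 of them.

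Clec4f encodes a C-type lectin that in mice marks Kupffer cells (chr6:83644542-83656187, minus strand, mouse build 38). Its level in vehicle replicates 1, 2 and 3 was 65.7, 83.8 and 119.9 CPM, and in insulin replicates 1, 2 and 3 it was 92.7, 75.9 and 63.3 CPM. The highest liver was thus a vehicle liver and the lowest an insulin liver, with the others interleaved. The means were 89.8 ± 27.6 CPM (SD, n = 3) with vehicle and 77.3 ± 14.8 CPM (SD, n = 3) with insulin. The log2 fold change of −0.22 had a standard error of 0.29 and a 95% interval from −0.88 to 0.44 (edgeR, adjusted p = 0.865). It was 0.049 without vehicle replicate 3.

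Vsig4 encodes a complement receptor that binds fragments of C3 on particles (chrX:96247203-96293438, minus strand). Its levels were 14.4, 17.9 and 35.9 CPM in the vehicle livers and 22.6, 14.4 and 10.3 CPM in the insulin livers. As for Clec4f, vehicle replicate 3 was the highest and insulin replicate 3 the lowest. Its log2 fold change was −0.53 with a standard error of 0.42 and a 95% interval from −1.50 to 0.44 (edgeR, adjusted p = 0.852). Without vehicle replicate 3 it was −0.03, and without insulin replicate 1 it was −0.87.

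Timd4 encodes a receptor for phosphatidylserine on dying cells and is carried by long-lived resident Kupffer cells (chr11:46810800-46844332, plus strand). It was measured at 8.46, 12.4 and 7.25 CPM with vehicle and at 7.16, 7.36 and 6.97 CPM with insulin. The insulin livers lay within a narrow range, at 7.16 ± 0.197 CPM (SD, n = 3), just under or among the vehicle livers at 9.37 ± 2.69 CPM (SD, n = 3). Its log2 fold change of −0.39 had a 95% interval from −1.03 to 0.26 (edgeR, adjusted p = 0.852).

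Adgre1 encodes the adhesion receptor F4/80, the classical surface marker of mouse macrophages (chr17:57358691-57483527, plus strand). The vehicle livers had 18.6, 40.3 and 15.4 CPM and the insulin livers 47.5, 19.6 and 18.0 CPM. A single liver stood high in each group, namely vehicle replicate 2 and insulin replicate 1. The log2 fold change was 0.20 (95% interval −0.94 to 1.33; edgeR, adjusted p = 0.925), and it was −0.39 without insulin replicate 1 and −0.056 without vehicle replicate 3.

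Cd68 encodes a lysosomal glycoprotein of macrophages (chr11:69664213-69666153, minus strand). Its levels of 12.9, 5.89 and 7.82 CPM with vehicle, and of 15.04, 8.74 and 10.1 CPM with insulin, spanned a narrower range than those of Adgre1. Vehicle replicate 2 was the lowest liver for Cd68, whereas it was the second highest for Adgre1. The log2 fold change of 0.35 had a 95% interval from −0.48 to 1.18 (edgeR, adjusted p = 0.854). It ran from 0.093 without insulin replicate 1 to 0.72 without vehicle replicate 1, was 0.13 without vehicle replicate 2, and was 0.17 with the GC offset and 0.042 with limma's quality weights.

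Marco, which encodes a class A scavenger receptor for bacteria and particles, had the widest range of the 10 (chr1:120474538-120505024, minus strand). Its counts were 1404, 120 and 191 in vehicle replicates 1, 2 and 3, and 2989, 1357 and 1426 in the insulin replicates. In CPM these came to 74.2, 7.37 and 9.11 with vehicle and to 135, 58.8 and 65.8 with insulin, an 18.3-fold range over the 6 livers. Vehicle replicate 1 lay among the insulin livers, and the other vehicle livers lay far below all of them. The means were 30.2 ± 38.1 CPM (SD, n = 3) and 86.4 ± 41.9 CPM (SD, n = 3). The log2 fold change of 1.51 had a standard error of 0.86 and a 95% interval from −0.46 to 3.49 (edgeR, unadjusted p = 0.115, adjusted p = 0.852).

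The size of the Marco difference depended on single livers. Without vehicle replicate 1, which lay among the insulin livers, the log2 fold change rose to 3.39. By edgeR its p was 0.000303 before and 0.347 after adjustment, in a fit in which 9.81% of all genes had an unadjusted p under 0.05. Without vehicle replicate 2 or 3 the log2 fold change fell to 1.05 or 1.08, and without insulin replicate 1 to 1.04. Saa1, an acute phase gene of hepatocytes chosen after its values were seen, had the same division of livers. It stood at 4370, 252 and 217 CPM with vehicle and at 5070, 4570 and 6803 CPM with insulin. Over all genes tested, vehicle replicate 1 was also closest to the insulin livers, but vehicle replicates 2 and 3 did not form a group. Log2 CPM of vehicle replicate 1 correlated at r = 0.983, 0.988 and 0.982 with insulin replicates 1, 2 and 3. With vehicle replicates 2 and 3 its r was 0.921 and 0.948. Between those 2 livers r was 0.878, the lowest of any pair. With the insulin livers r was 0.906 to 0.912 for vehicle replicate 2 and 0.951 to 0.954 for vehicle replicate 3. Whether Marco and Saa1 were linked was not tested.

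Cd5l encodes a secreted protein of macrophages, also called apoptosis inhibitor of macrophages (chr3:87357881-87371073, plus strand). It was measured at 86.7, 61.6 and 136.9 CPM with vehicle and at 178.9, 88.0 and 78.1 CPM with insulin. The livers were interleaved, with 1 high liver in each group. The log2 fold change of 0.27 had a 95% interval from −0.67 to 1.22 (edgeR, adjusted p = 0.873), and it was −0.19 without insulin replicate 1.

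C1qa, C1qc and C1qb encode the 3 chains of C1q, the recognition subunit that starts the classical complement pathway. They lie beside each other on the minus strand of chromosome 4, at chr4:136895917-136898803, chr4:136889804-136893065 and chr4:136880129-136886187. C1qa stood at 38.3, 6.81 and 73.8 CPM with vehicle and at 62.9, 42.7 and 41.1 CPM with insulin. C1qb had 56.1, 23.3 and 76.4 CPM with vehicle against 88.1, 53.3 and 51.3 CPM with insulin. C1qc had 34.5, 6.45 and 54.3 CPM with vehicle against 64.5, 36.7 and 38.2 CPM with insulin. All 3 chains were lowest in vehicle replicate 2 by a wide margin. For C1qa and C1qc the remaining vehicle livers lay on either side of insulin replicates 2 and 3, and for C1qb both lay above them. The log2 fold changes were 0.30 for C1qa (95% interval −1.26 to 1.87), 0.31 for C1qb (−0.69 to 1.304) and 0.55 for C1qc (−0.93 to 2.02). Their adjusted p values by edgeR were 0.914, 0.870 and 0.856. Without vehicle replicate 2 the log2 fold changes were −0.19, −0.040 and 0.069 in the same order. Without vehicle replicate 3 they were 1.11, 0.69 and 1.18.

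**Figure D2:**
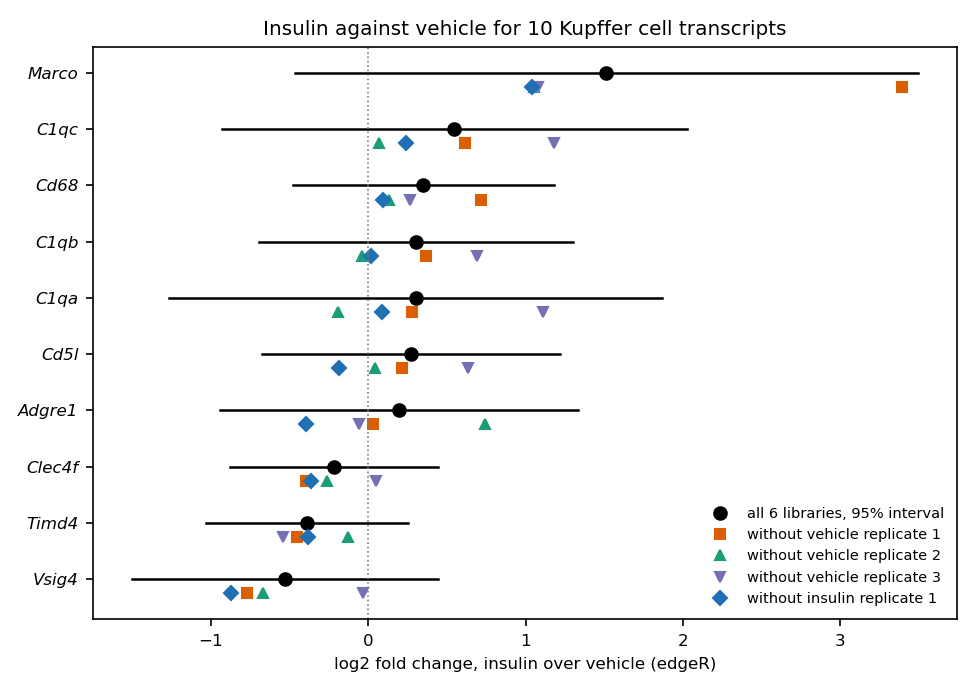
Log2 fold change of each Kupffer cell transcript, IR insulin over IR vehicle, with its 95% interval from the edgeR fit of 3 against 3 livers (black), and the value with 1 of 4 livers left out (coloured). Every interval includes 0, the interval of Marco, from −0.46 to 3.49, is the widest, and without vehicle replicate 1 its value is 3.39.

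The sequence just before the start of transcription is shown for Marco, the transcript with the widest range, and for C1qb, the transcript with the highest mean level per length. The set of RefSeq (GRCm38.p6) promoters used here held an entry for 8 of the 10, and none for Adgre1 and C1qa. Each run holds the 250 bases before the RefSeq start, 5′ to 3′ on the gene's own strand, at chr1:120505025-120505274 and chr4:136886201-136886450, both on the minus strand. Capitals mark AGGAAG, the core bound by PU.1 and other ETS factors, and TGCTGA, a half-site of MAF factors, on either strand.
Marco: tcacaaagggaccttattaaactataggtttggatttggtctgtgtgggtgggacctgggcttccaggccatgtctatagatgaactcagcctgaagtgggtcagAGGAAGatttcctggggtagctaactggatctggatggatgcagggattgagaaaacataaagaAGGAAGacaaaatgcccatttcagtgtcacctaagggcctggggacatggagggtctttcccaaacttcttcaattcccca
C1qb: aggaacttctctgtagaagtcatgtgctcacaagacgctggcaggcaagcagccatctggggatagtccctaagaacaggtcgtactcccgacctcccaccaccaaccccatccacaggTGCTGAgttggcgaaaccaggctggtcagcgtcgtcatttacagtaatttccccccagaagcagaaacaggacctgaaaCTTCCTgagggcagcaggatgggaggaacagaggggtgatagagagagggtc
Marco held 2 copies of AGGAAG and no TGCTGA, and C1qb held 1 copy of each. No matches overlapped. Of the 8 transcripts, 4 had AGGAAG (C1qb, C1qc, Cd5l and Marco) and 4 had TGCTGA (C1qb, Cd5l, Clec4f and Timd4) in these 250 bases. Over 32851 promoter entries of the same length the shares were 29.5% and 16.1%. The AP-1 core TGAGTCA was found in 1 of the 8, Cd68, and in 4.46% of all entries. These are matches of letters and not tests of binding.

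Levels were compared between the transcripts only after division by transcript length, as TPM, which relate each transcript to its length (here of the longest annotated transcript) and to the sum over the library. Averaged over the 6 livers, the order was C1qb (101 TPM), Cd5l (97.4 TPM), C1qa (80.8 TPM), Clec4f (63.1 TPM), C1qc (61.9 TPM) and Marco (58.6 TPM), followed by Vsig4 (24.96 TPM), Cd68 (15.5 TPM), Adgre1 (15.3 TPM) and Timd4 (7.05 TPM). Only the last step, Adgre1 above Timd4, held in all 6 livers. Every other pair of neighbours changed places in at least 1 liver, and C1qc was above Marco in only 2 of the 6.

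The transcripts did not move as a block across the livers. Vehicle replicate 3 was the highest liver for Clec4f, Vsig4 and C1qa, insulin replicate 1 for 6 others, and vehicle replicate 2 for Timd4. Vehicle replicate 2 was the lowest for 6 transcripts, insulin replicate 3 for Clec4f, Vsig4 and Timd4, and vehicle replicate 3 for Adgre1. Over all genes tested, insulin replicate 1 was the highest liver for 11.6% and vehicle replicate 2 the lowest for 37.4%. Summed over the 10 transcripts, the level was 409.8, 265.9 and 537 CPM with vehicle against 714, 405.5 and 383 CPM with insulin. These sums came to 404 ± 136 CPM and 501 ± 185 CPM (SD, n = 3 each), so the groups differed by less than 1 SD of either. The interleaving remained when Marco was left out, at 335.5, 259 and 528 CPM against 579, 347 and 317 CPM.

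Ratios of TPM within a liver compare members without the scaling of the library. The ratio of C1qc to C1qb was 0.557, 0.250 and 0.643 with vehicle and 0.662, 0.623 and 0.673 with insulin. That of C1qa to C1qb was 0.714, 0.305 and 1.011 with vehicle and 0.748, 0.839 and 0.838 with insulin. Both ratios were lowest in vehicle replicate 2, by a wide margin. The ratio of C1qa to C1qc varied less, from 1.13 to 1.57 over the 6 livers. Marco to Clec4f gave the widest split, at 1.45, 0.113 and 0.0975 with vehicle and 1.86, 0.993 and 1.33 with insulin.

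**Figure D3:**
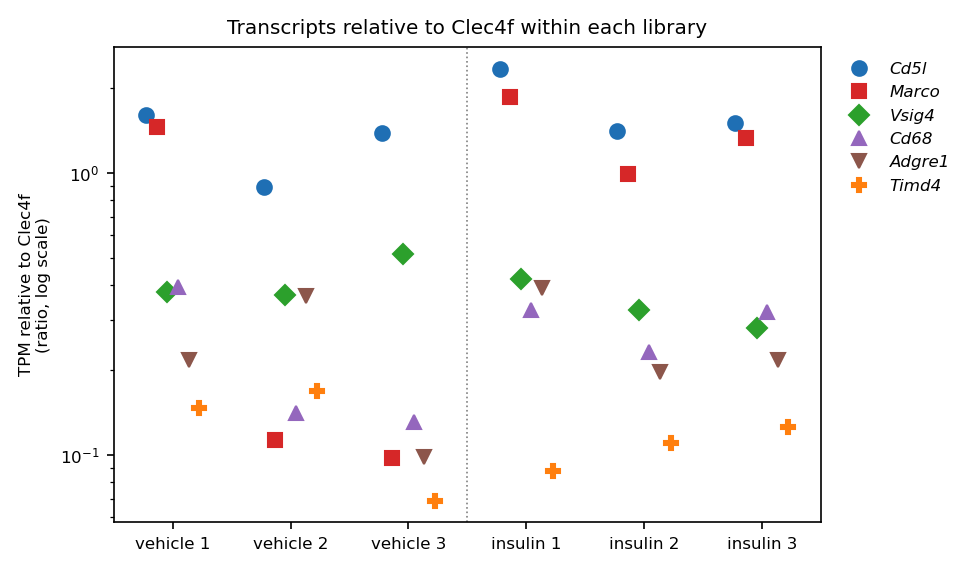
TPM of Cd5l, Marco, Vsig4, Cd68, Adgre1 and Timd4 divided by that of Clec4f in the same liver (log axis), 1 column per mouse. Marco spreads furthest, from 0.0975 to 1.86, and its lowest points are vehicle replicates 2 and 3.

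Vehicle replicate 2 stood apart from the rest of the series in a way that followed the GC content of the transcripts. There the log2 deviation of a gene, taken against the other 5 libraries' median, changed by −1.13 for each 10 percentage points of GC, against −0.06 to 0.19 in the others. Among the Kupffer cell transcripts, the deviation was −2.63 for C1qa (59.5% GC), −2.55 for C1qc (57.5% GC) and −1.26 for C1qb (57.3% GC). At the other end it was 0.77 for Timd4 (44.4% GC), 0.32 for Vsig4 (44.5% GC) and 1.11 for Adgre1 (47.2% GC). Set against all tested genes of like GC content, 6 of the 10 lay between the quartiles. Below them lay Marco (−3.14), C1qa and C1qc, and above them Adgre1. After a GC offset the deviations were −1.18 for C1qa, −1.34 for C1qc, −0.21 for C1qb, −2.34 for Marco and 0.97 for Adgre1. Its part in the group comparison was not tested beyond the fits with the offset and without that liver.

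**Figure D4:**
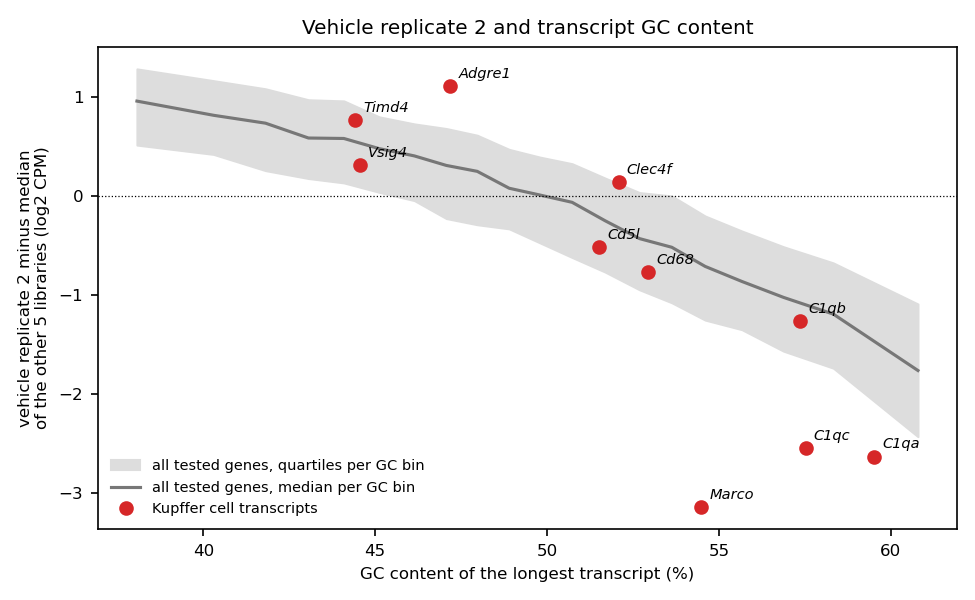
Log2 deviation of vehicle replicate 2 (from the other 5 livers' median) against the GC content of the longest transcript, with the Kupffer cell transcripts as named points and all tested genes as the median and quartiles of GC bins. The general course falls with GC content, and Marco, C1qa and C1qc lie below the lower quartile of their bins.

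Beyond the 10 transcripts, 9 lists, called macrophage lists below, held 74 genes, of which 69 were tested. They took in macrophage genes, growth factors that act on macrophages and complement partners of C1q, so they are not a readout of macrophages alone. By edgeR none of the 69 passed an adjusted p of 0.05. At an unadjusted p under 0.05 there were 2, both lower with insulin, which is 2.9% beside 2.86% of all genes. DESeq2 gave 2. Limma with quality weights gave 1, which was neither of these but Gas6, higher with insulin. The median log2 fold change over the 69 was 0.15, with 39 above 0. Slc40a1, the iron exporter ferroportin by which macrophages return iron from old red cells, stood at 88.5, 134 and 158 CPM with vehicle and at 75.9, 64.7 and 87.1 CPM with insulin. Its values did not overlap between groups, as was so for 12.3% of all genes tested. The log2 fold change was −0.74 with a standard error of 0.27 (edgeR, unadjusted p = 0.0275, adjusted p = 0.852). Mrc1, the mannose receptor that sinusoidal endothelial cells also carry, stood at 25.5, 41.4 and 48.2 CPM with vehicle and at 24.2, 26.3 and 20.99 CPM with insulin. Its log2 fold change was −0.69 with a standard error of 0.28 (edgeR, unadjusted p = 0.0394, adjusted p = 0.852). Without vehicle replicate 3 the unadjusted p values by edgeR were 0.0746 for Slc40a1 and 0.119 for Mrc1. Without insulin replicate 1 they were 0.0819 and 0.0994, and without insulin replicate 2 they were 0.112 and 0.0718. Without vehicle replicate 2 or insulin replicate 3 that of Mrc1 alone moved past 0.05, to 0.0515 and 0.130. With the GC offset the values for Slc40a1 and Mrc1 were 0.104 and 0.0932, and with the quality weights of limma they were 0.0518 and 0.190.

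Of 14 identity and lineage genes, 9 had a log2 fold change above 0, with a median of 0.37. Spi1, which encodes the myeloid transcription factor PU.1, stood at 10.1, 4.11 and 9.35 CPM with vehicle against 18.8, 9.61 and 9.87 CPM with insulin (log2 fold change 0.70 ± 0.42 SE; edgeR, adjusted p = 0.852). Id3, a regulator needed for Kupffer cell development, stood at 88.5, 41.5 and 62.8 CPM with vehicle against 137, 91.4 and 68.7 CPM with insulin. Neither gene separated the groups.

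Csf1 and Il34 encode the growth factors that maintain macrophages through the receptor Csf1r. Csf1 stood at 10.5, 5.89 and 4.53 CPM with vehicle and at 12.1, 12.9 and 10.2 CPM with insulin, so that only vehicle replicate 1 reached the insulin livers (log2 fold change 0.75 ± 0.34 SE; edgeR, adjusted p = 0.852). Il34 was low, from 0.921 to 3.77 CPM over the 6 livers. The receptor was measured at 28.8, 39.1 and 47.2 CPM with vehicle and at 51.2, 26.1 and 33.7 CPM with insulin, a log2 fold change of −0.05 ± 0.31 SE. Exons of Csf1r overlap Hmgxb3 on the opposite strand, and the counting of strand was not stated, so its level is uncertain.

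Of the remaining lists, those of receptors, of complement partners and of genes shared by phagocytes had medians near 0. In the list of clearance and scavenger receptors 2 of 8 log2 fold changes lay above 0 (median −0.15), with Gas6, a bridge to dying cells, at 31.9, 40.3 and 36.3 CPM with vehicle against 52.9, 48.6 and 45.6 CPM with insulin. Its groups did not overlap, as was so for 12.3% of all genes tested. Its log2 fold change of 0.44 had a p of 0.0660 before and 0.852 after adjustment by edgeR. The unadjusted p was 0.00591 with limma's quality weights, 0.0388 with upper-quartile scaling and 0.00997 without vehicle replicate 2, whereas with the GC offset the log2 fold change was −0.084. Complement and Fc receptors had 6 of 9 above 0 (median 0.15), and the smallest p was that of the integrin chain Itgb2, at 14.96, 8.66 and 7.01 CPM against 25.8, 12.5 and 13.8 CPM. The complement partners of C1q had 2 of 6 above 0 (median −0.03). There C4b, the next substrate of the pathway, ran from 1147 to 1189 CPM with vehicle and from 1211 to 1461 CPM with insulin. Its groups did not overlap either (edgeR, adjusted p = 0.856). Genes shared by phagocytes had 7 of 11 above 0 (median 0.15). Cd14, a co-receptor for endotoxin, ranged from 12.3 to 56.3 CPM with vehicle and from 31.2 to 87.5 CPM with insulin.

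Genes of monocyte-derived macrophages were near or below the other lists, with 5 of 7 tested and 1 of 5 above 0 (median −0.37). Their summed level ran from 10.2 CPM in vehicle replicate 3 to 67.8 CPM in vehicle replicate 2, and from 25.5 to 34.3 CPM with insulin. Lipid-associated macrophage genes had 5 of 7 above 0 (median 0.46). Of 9 cytokine genes 6 were tested and 5 of these lay above 0 (median 0.57). Tnf was at 0.740, 0.307 and 0 CPM with vehicle and at 1.62, 1.39 and 0.646 CPM with insulin, low levels at which the groups overlapped.

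The genes whose levels over the 6 livers were most like the mean of the 10 transcripts were 1500011K16Rik (Pearson r = 0.986), Spi1 (r = 0.985), Kyat1 (r = 0.979), Lgmn (r = 0.979) and Tyrobp (r = 0.979), among 9169 genes with a mean of at least 5 CPM. The 6 points share libraries and depth, and 133 of the 9169 genes had an r over 0.9, so these values are given as a description. All of the named genes had vehicle replicate 2 lowest and insulin replicate 1 highest, as did the mean by which they were picked. This held for Spi1, for Tyrobp, an adaptor of myeloid receptors, and for Lgmn, a lysosomal protease. It held equally for Kyat1 and 1500011K16Rik. Lgmn, for example, stood at 64.6, 34.7 and 69.1 CPM with vehicle against 94.4, 66.6 and 66.2 CPM with insulin.

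Other cell types of the liver also varied among the vehicle livers. The summed level of 9 sinusoidal endothelial genes was highest in vehicle replicate 3, at 379 CPM against 217 to 260 CPM in the other 5 livers, and that liver was also the highest for Clec4f and Vsig4. Neutrophil genes summed to 4.82 CPM in vehicle replicate 3 and to 31.7 to 78.8 CPM elsewhere. B cell genes were highest in vehicle replicate 2, at 40.3 CPM against 2.86 to 10.04 CPM in the others. Erythroid genes, which red cells in the tissue contribute, were also highest there, at 1587 CPM against 312 to 626 CPM. By edgeR 4 of 5 were lower with insulin at an unadjusted p under 0.05, beside 1.86% of all genes. None passed adjustment (smallest adjusted p = 0.852 by edgeR). These genes belong to the same cell type, so they are not separate calls, and their comparison without vehicle replicate 2 was not examined. Hepatocyte markers summed to 63940 to 174000 CPM, so the tissue was liver in each library, and no listed marker was at 0 in all 6. The part of these cell types in the levels of the Kupffer cell transcripts was not tested.

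**Figure D5:**
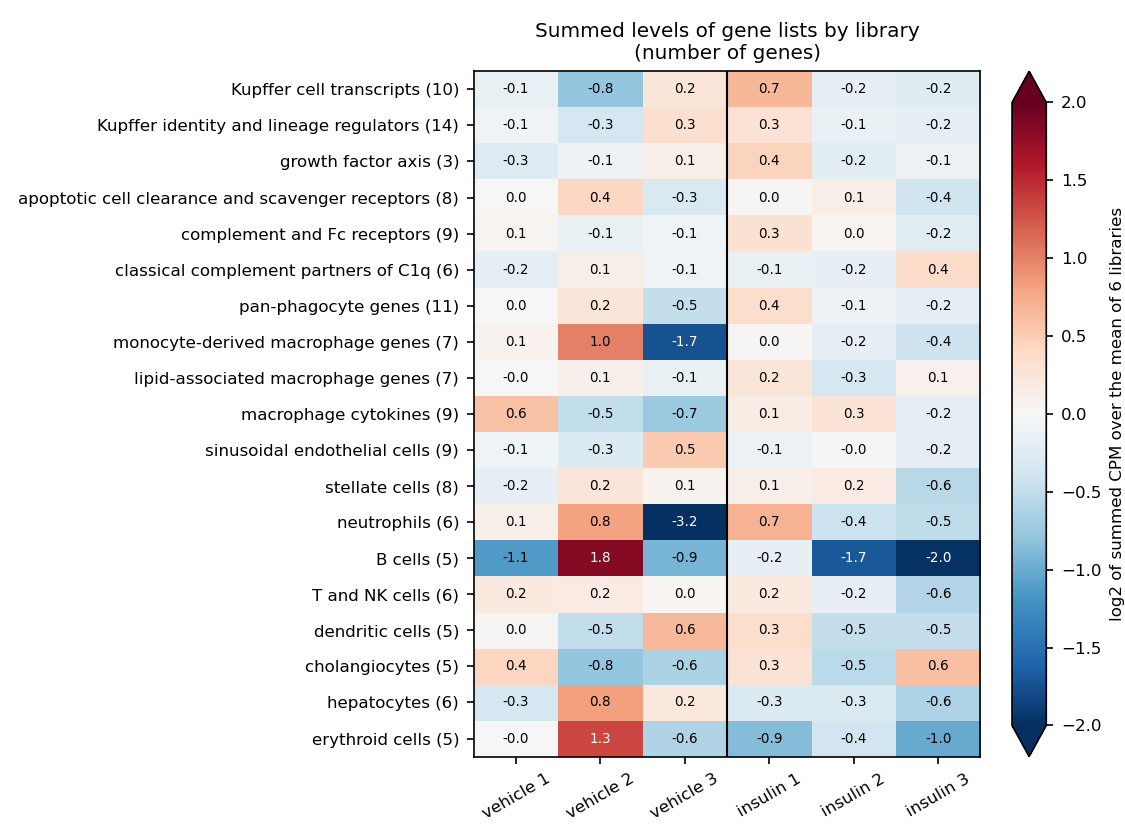
Summed CPM of each macrophage list and each marker list in every liver, as the log2 difference from the list's mean over the 6 livers (colour). The colours end at differences of 2 in either direction, and the neutrophil sum of vehicle replicate 3, a log2 difference of −3.2, lies beyond them. The sum of the 10 Kupffer cell transcripts is lowest in vehicle replicate 2 and highest in insulin replicate 1.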

How the data were processed

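Liver RNA of 6 mice, 3 per group, was sequenced, and groups and replicate numbers came from the sample labels. The deposited values were whole-number read counts per gene and library, with no normalization by the authors. Per the labels and the study's methods, NEBNext Ultra libraries were sequenced on an Illumina HiSeq and aligned with Bowtie2 2.2.3 to mm10. The counting program, annotation and use of strand are not given in the sources used here, so counts of overlapping genes are uncertain. Bowtie2 does not split reads across exon junctions, which can lower genes with many short exons. Library totals ran from 18449986 to 21827619 counts. The biological coefficient of variation of 0.357 limited precision more than depth did.

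The groups were compared by glmQLFit and glmQLFTest of edgeR 4.0.16 in R 4.3.3, with TMM scaling, no covariate and filterByExpr (minimum count 10, minimum total 15). Benjamini-Hochberg adjustment covered all 13377 genes kept. The criteria of the study (log2 fold change of 0.35 or more in size, unadjusted p under 0.05) were read from the same fit. An exact permutation test of 3 against 3 cannot pass 0.05 and was not used. Coordinates, lengths and GC content came from GENCODE M21, in which 54495 of the 54532 genes were found, and none of the 10 transcripts overlapped another annotated gene. The GC offset was a loess curve (span 0.5) per library, for the 13367 tested genes with a GC value. The code was tested on simulated data. Alternatives were RLE and upper-quartile scaling, no filter, DESeq2 1.42.0 (p values it left empty stayed empty), voom with quality weights of limma 3.58.1, the GC offset, a replicate block, both together, and each library left out. The same-numbered vehicle and insulin livers were not taken as pairs.

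Named are the 10 transcripts, genes among the 3 with the smallest p of each macrophage list, and the 5 genes most like the mean of the 10. Of those 3 per list, the text gives values for the genes it describes. Genes of the lists for other cell types enter as sums and counts. The members and lists were chosen with earlier results of these data known.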

Additional observations from a re-analysis of the deposited data

How the results depend on the processing

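None of the 13377 genes, and so none of the Kupffer cell transcripts, passed an adjusted p of 0.05 in edgeR or in any of the 14 alternatives, in which the lowest adjusted p of the 10 was 0.347. At an unadjusted p under 0.05, 0 of 10 passed, against 1 (Marco) without the filter on low counts, 1 with the replicate block, 1 with the block and GC offset together, and 0 to 1 with a library left out (1 without vehicle replicate 1). The count of all genes past the study's criteria was 383, against 742 without the filter, 213 with voom and 99 to 1349 with a library left out (1349 without vehicle replicate 1, 888 without vehicle replicate 3, 99, 143 and 120 without insulin replicates 1, 2 and 3). The labels give replicate numbers but do not say whether same-numbered livers were paired. Same-numbered livers deviated together with r of −0.04 to 0.07, and differently numbered livers with r of −0.11 to 0.089. Such correlations cannot show whether the livers were paired. With the replicate block 321 genes passed those criteria, and the log2 fold change of Marco was 2.25 (edgeR, unadjusted p = 0.00177). The unadjusted p of Mrc1 was 0.0760 with the block, and those of Slc40a1 and Mrc1 were 0.0782 and 0.154 with the block and GC offset. The median of the 10 transcripts ran from −0.09 without insulin replicate 1 to 0.45 and was 0.0031 without vehicle replicate 2.

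With a library left out, log2 fold changes ran from −0.40 to 0.049 for Clec4f, −0.19 to 0.63 for Cd5l, −0.39 to 0.74 for Adgre1, −0.19 to 1.11 for C1qa, −0.040 to 0.69 for C1qb, −0.35 to 0.15 for Csf1r, −0.66 to 0.011 for Msr1, −0.22 to 0.028 for C1s1, −1.24 to 0.64 for Chil3, −0.89 to 0.27 for Ccr2, −0.81 to 0.47 for Plac8 and −0.94 to 0.13 for Lpl. Voom gave the opposite sign for Clec4f (0.065), Csf1r (0.14), Chil3 (0.43), Ccr2 (0.029) and Plac8 (0.23). The GC offset did so for C1qb (−0.00028), Gas6 (−0.084), Msr1 (0.0075), C4b (−0.20) and Ccr2 (0.032). The block with the offset did so for C1qb (−0.023), Msr1 (0.015), C4b (−0.13), Chil3 (0.17), Ccr2 (0.21) and Plac8 (0.0077), and the block alone for Chil3 (0.063). The cause was not tested. Vsig4, Marco, Cd68, Timd4 and C1qc kept their direction in all 14 alternatives. With 3 mice a group, a missing difference is a limit of the spread between mice and does not show that levels were equal.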
